A study of Drosophila melanogaster with 2 samples.

Results

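Long noncoding RNA genes with a peak of the tagged protein Ravus at a start site numbered 67 of the 2448 genes whose annotated symbol begins with lncRNA: or asRNA: (antisense RNA). They were chosen by the occupancy itself: the summit of a peak in the conservative series list had to lie within 500 bp of an annotated start site of the gene. Peak signal, summit position within that window and presence in the replicates therefore come from the measurement that selected them and are given as descriptions, without tests. In 25 of the 67 genes the same summit also lay within 500 bp of a protein-coding start site, and these are called shared. In the other 42 no coding start site lay that close, and these are called noncoding-only.

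The chromatin came from whole Drosophila melanogaster embryos of 0 to 24 h, of a strain with an insertion that expresses Ravus fused to enhanced green fluorescent protein. Chromatin immunoprecipitation with an antibody against GFP was followed by sequencing (ChIP-seq) in 2 biological replicates, which form the only group. The labels give neither the promoter of the transgene nor the sex of the embryos, and a whole embryo mixes all its cell types, so a peak shows occupancy in an unknown share of the cells. No RNA was measured here, so whether any of these noncoding genes was transcribed in the embryos is unknown.

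Long noncoding RNAs are transcripts with little or no capacity to encode protein. Some act as RNA, such as the roX RNAs, which coat the male X chromosome in dosage compensation, and others are transcribed across the control regions of neighbouring genes. Many noncoding transcripts start from the same open promoter region as a coding gene, reading away from it or across it. Ravus belongs to the MADF-BESS proteins, a fly family that joins a DNA-binding MADF domain to a BESS protein-interaction domain.

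The windows of 101 bp around 5 of the 6 strongest noncoding-only summits are shown because at these sites no coding start site lies within 500 bp of the summit. They were read from the RefSeq sequence of the dm6 genome (release 6), each 5′ to 3′ along the noncoding gene, with the summit at the middle base, and capitals mark the motif TATAAA on either strand. The sites were chrX:12751361-12751461 for lncRNA:CR44619, chr3R:29214395-29214495 for lncRNA:CR31044 and chr3R:17700546-17700646 for lncRNA:CR46036, all on the plus strand, and on the minus strand chr2L:14024030-14024130 for lncRNA:CR31840 and chrX:15298438-15298538 for asRNA:CR44429.
lncRNA:CR44619: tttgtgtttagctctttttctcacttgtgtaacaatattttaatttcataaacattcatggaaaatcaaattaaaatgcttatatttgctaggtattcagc
lncRNA:CR31044: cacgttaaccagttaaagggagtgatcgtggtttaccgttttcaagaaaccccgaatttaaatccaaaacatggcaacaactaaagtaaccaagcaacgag
lncRNA:CR46036: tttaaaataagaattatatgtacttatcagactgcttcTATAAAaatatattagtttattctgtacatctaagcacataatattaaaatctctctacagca
lncRNA:CR31840: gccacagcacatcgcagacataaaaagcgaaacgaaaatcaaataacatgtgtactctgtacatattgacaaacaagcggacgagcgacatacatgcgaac
asRNA:CR44429: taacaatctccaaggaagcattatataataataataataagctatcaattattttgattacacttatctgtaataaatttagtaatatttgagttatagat
The GC content of these windows was 25.7%, 40.6%, 22.8%, 42.6% and 19.8% in that order. Equally wide windows 300 bp away on both sides had a mean of 28.2%, 44.1%, 49.5%, 43.1% and 49.5%. Only lncRNA:CR46036 and asRNA:CR44429 of these 5 had a clear AT-rich trough at the summit. The remaining one of the 6, lncRNA:CR44339, is not printed, and its window had 19.8% GC against 41.6% beside it. The longest run of A and T was 21 bp, at asRNA:CR44429, and the shortest 7 bp, at lncRNA:CR31840.

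Among shared peaks, windows are shown for 3 of the 7 strongest, since they let the noncoding-only windows be compared with promoters that also serve a coding gene: chr2L:9568669-9568769 on the minus strand for lncRNA:CR44149, which pairs with brwl, chrX:523432-523532 on the minus strand for lncRNA:enrr, which pairs with elav, and chr2L:7994339-7994439 on the plus strand for asRNA:CR44996, which pairs with pes. Orientation and capitals are as above.
lncRNA:CR44149: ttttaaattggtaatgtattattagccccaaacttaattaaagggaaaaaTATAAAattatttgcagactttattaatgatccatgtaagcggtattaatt
lncRNA:enrr: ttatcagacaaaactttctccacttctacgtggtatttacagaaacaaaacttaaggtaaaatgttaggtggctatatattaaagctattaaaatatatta
asRNA:CR44996: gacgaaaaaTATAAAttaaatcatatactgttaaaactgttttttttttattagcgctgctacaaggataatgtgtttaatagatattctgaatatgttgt
These 3 windows were AT-rich, with a GC content of 23.8%, 26.7% and 23.8% against 46.5%, 39.1% and 44.1% beside them. Of the 4 that are not printed, lncRNA:CR44463, asRNA:CR45928, asRNA:CR43257 and lncRNA:CR44209, asRNA:CR45928 had the highest GC content, 40.6% against 59.9% beside it. The lncRNA:CR44149 and asRNA:CR44996 windows each held 1 TATAAA, and the lncRNA:enrr window held none.

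Promoter peaks were found at 2.74% of the lncRNA: and asRNA: genes, beside 991 of 13968 protein-coding genes, or 7.09%, and 1075 of 18277 genes of any kind, or 5.88%. By prefix they were at 55 of 1945 lncRNA: genes (2.83%) and 12 of 503 asRNA: genes (2.39%). Among the 729 noncoding genes with a coding start site within 1000 bp of their own, 27 had a peak, or 3.7%, against 40 of the 1719 without one, or 2.33%. These shares rest on the rule that selected the genes and nothing is read from them. The noncoding-only group held 38 lncRNA: and 4 asRNA: genes, and the shared group 17 and 8.

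The genes carried 67 distinct strongest peaks, so no 2 of them were counted from the same strongest peak. A pair of noncoding-only genes also had a second promoter peak, described below. By chromosome arm, 18 genes lay on 2L, 16 on 2R, 12 on 3L, 7 on 3R and 14 on X, with none on 4 or Y. X thus held 20.9% of them against 12.7% of all 2448 noncoding genes, and 3R held 10.45% against 22.5%. The difference between arms was not tested. In length and exon number the genes were much like noncoding genes at large: their median length was 629 bp, with a range of 201 to 17510 bp, against 720 bp for all, and 39 of 67 (58.2%) had a single exon, against 59.8%.

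The strength of occupancy varied widely among these genes, from weak peaks to some of the strongest promoter peaks. The signal, which is the authors' value for each peak in a unit they do not name, had a median of 139.9 over the 67 strongest peaks, with quartiles of 99.7 and 212 and a range of 77.8 to 1133, within the 66.7 to 1414 of all 767 promoter peaks. The noncoding-only median was 141 (quartiles 99.4 and 214), the shared median 136.5 (103 and 194), and that of the 695 coding promoter peaks without a noncoding gene from this set 143 (105 and 217.5). The interquartile ranges of all 3 overlapped. Signal exceeded 200 at 18 genes and was under 100 at 17, of which 11 were noncoding-only. The strongest 25% of the conservative list held 12 of the 42 noncoding-only peaks, 7 of the 25 shared peaks and 31.1% of the coding promoter peaks.

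**Figure D1:**
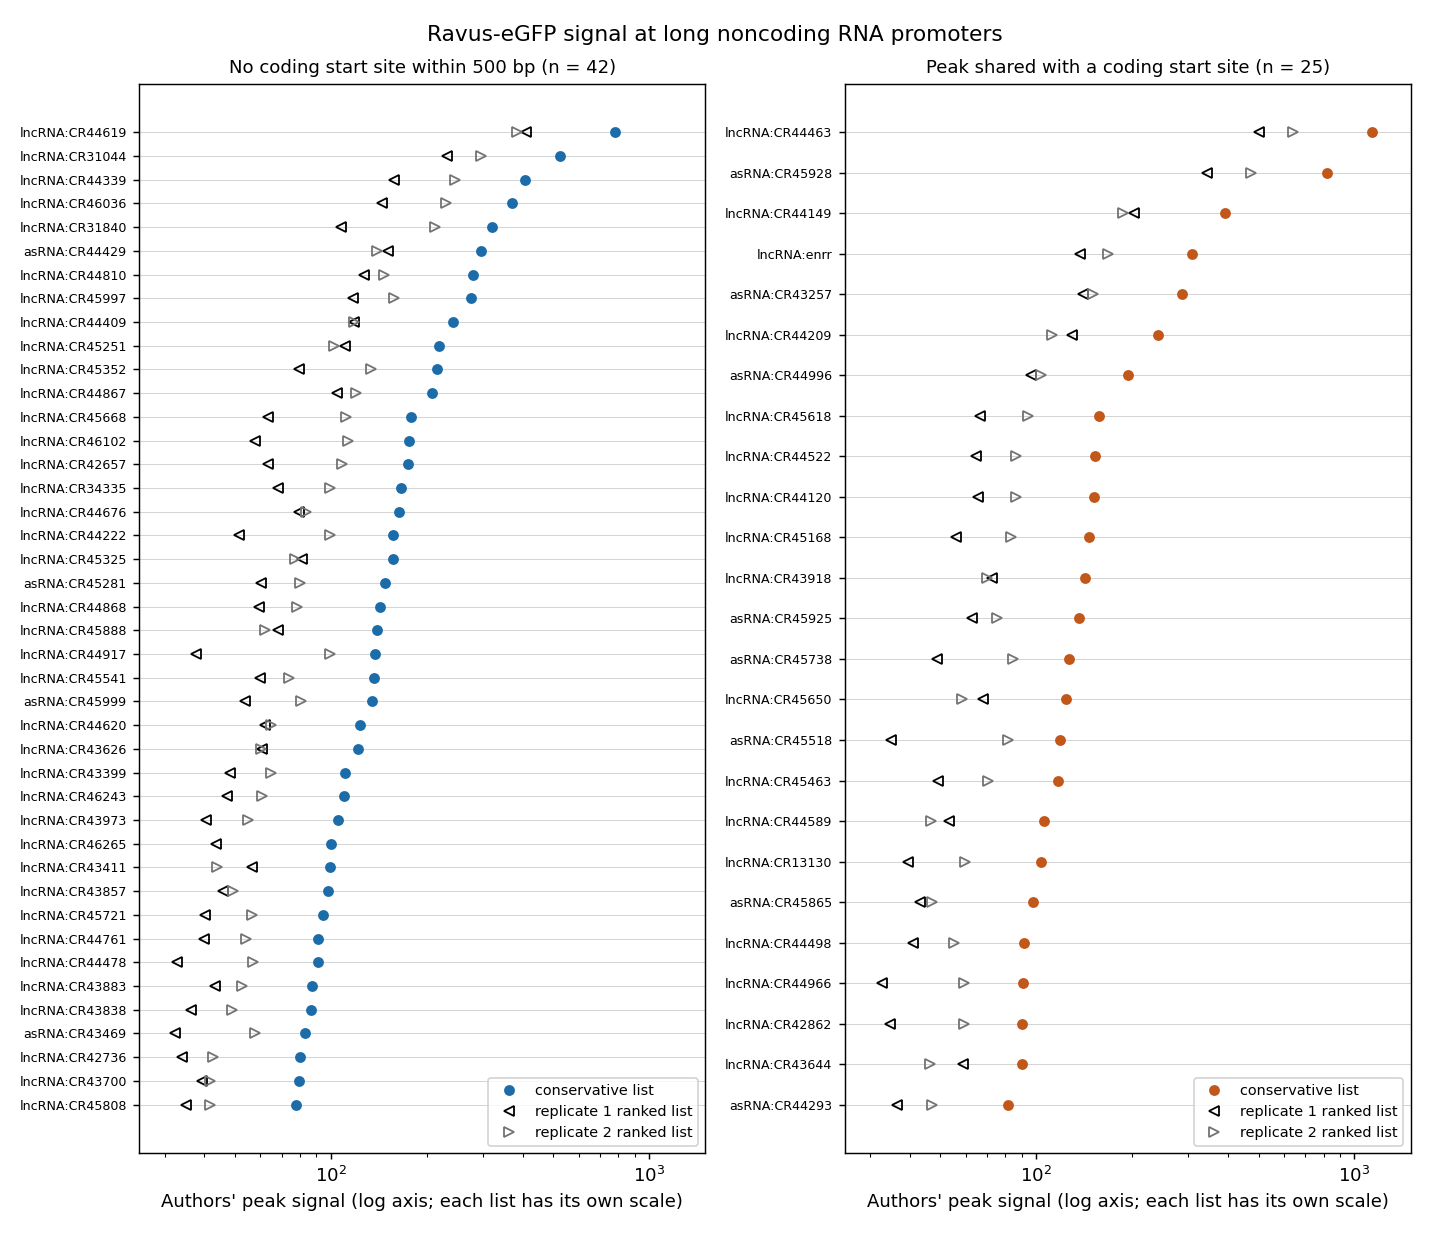
The plot gives the authors' peak signal on a log axis for each of the 42 noncoding-only genes (left) and the 25 shared genes (right), with filled points for the conservative list and triangles for the ranked list of each replicate. The lists have their own scales; the noncoding-only genes run from 781 down to 77.8 and the shared genes from 1133 down to 81.8.

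The strongest noncoding-only peak lay at lncRNA:CR44619 on X, a gene of 2705 bp outside any coding gene. Its signal was 781, rank 14 of the conservative list, and in the replicates' ranked lists it was 409 (rank 8) in replicate 1 and 385 (rank 24) in replicate 2. The summit lay 456 bp upstream of the start site, and the nearest coding start site, that of CG4004, was 5094 bp away. Here the summit was close to the edge of the 500 bp window, and the peak had no nearer annotated start site of any kind. Next came lncRNA:CR31044 on 3R, a gene with 3 annotated transcripts. It had a signal of 523 (rank 43), with 231 in replicate 1 and 295 in replicate 2 at ranks 42 and 49. This summit lay 117 bp upstream of the start site and 5727 bp from that of eEF1gamma, which encodes a subunit of the translation elongation factor complex. Both replicates placed this peak and the lncRNA:CR44619 peak in their top 50.

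lncRNA:CR44339 on 2R had a signal of 408 (rank 70), with 158 in replicate 1 and 245 in replicate 2, and a summit 150 bp upstream of its start site. The nearest coding start site was 4223 bp away and belonged to Psc, a Polycomb group gene. The summit window held the longest run of A and T among the 67 genes, 35 bp, and had a GC content of 19.8%. lncRNA:CR46036 on 3R starts in an intron of osa, a gene of the Brahma chromatin remodelling complex, and is read on the opposite strand. Its signal was 369 (rank 96), with 144 and 229 in replicates 1 and 2, 145 bp upstream of its start site and 13525 bp from the nearest coding start site. Both summits lay at most 150 bp from a noncoding start and at least 4223 bp from a coding one.

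lncRNA:CR31840 on 2L had its summit 19 bp downstream of the start site, the smallest distance of the 67, and a signal of 321. Replicate 1 gave it 108 (rank 236) and replicate 2 gave it 212.5 (rank 100). A further peak lay 1790 bp from this summit, at lncRNA:CR45352, with a signal of 216 and its summit 257 bp upstream of that start site, 2082 bp from the coding start site of NimC3, a gene of the Nimrod immune receptor family. asRNA:CR44429 on X is read against gce, which encodes a juvenile hormone receptor. Its signal was 295.5, with 151 and 139 in replicates 1 and 2, and its summit lay 271 bp upstream of its own start site and 521 bp from a gce start site. Of the 42 noncoding-only summits it was the closest to a coding start site, just outside the 500 bp that separates the groups.

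Among the remaining strong noncoding-only peaks, lncRNA:CR44810 had a signal of 280 and a summit 175 bp upstream of the nearest of its start sites but inside the gene. Its nearest coding start site, 4547 bp away, was that of slbo, which encodes a C/EBP transcription factor needed for border cell migration. lncRNA:CR45997 had a signal of 276 and starts inside an intron of mbl, the gene of the splicing regulator Muscleblind, on the same strand, with the summit 394 bp downstream of the start. lncRNA:CR44409 starts in an intron of Dif, an NF-kappaB family gene of the immune response, on the opposite strand, and had a signal of 242.5. These intronic genes are short, at 410 and 452 bp, and at lncRNA:CR44409 the summit, 498 bp downstream of the start, lay past the end of the gene.

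Weaker peaks with a coding gene of known function nearby included lncRNA:CR45668, the longest of the 67 genes. Its signal was 178, with 63.3 in replicate 1 and 111.5 in replicate 2, and its summit lay 217 bp upstream of its start site and 655 bp from that of Act5C, which encodes a cytoplasmic actin. lncRNA:CR42657 had a signal of 175 and a summit 428 bp upstream of its start site, 695 bp from that of nej, the fly gene of the CBP histone acetyltransferase. lncRNA:CR46102, in an intron of the lipophorin receptor gene LpR2 and on the opposite strand, had a signal of 176 and a summit 163 bp downstream of its start site. All 3 had a higher value in replicate 2 than in replicate 1. The lowest noncoding-only signals were 80.2 at lncRNA:CR42736, 79.6 at lncRNA:CR43700 and 77.8 at lncRNA:CR45808, whose start site lies in an intron of the kinase gene Hipk.

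Multiple peaks at noncoding genes occurred in 2 places. lncRNA:CR45251 on 3L, a gene of 349 bp, had a peak of signal 218 with its summit 354 bp upstream of the start site and a second of signal 174 with its summit 337 bp downstream, inside the gene. The nearest coding start site to the stronger summit was 14788 bp away. In an intron of beat-Ib, a gene of the Beaten path family of immunoglobulin-domain proteins, lncRNA:CR44867 and lncRNA:CR44868 had summits 836 bp apart, with signals of 208 and 142. The lncRNA:CR44868 summit lay 422 bp upstream of that gene's start site and also 445 bp downstream of the lncRNA:CR44867 start site, so this peak counts as the second peak of lncRNA:CR44867.

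Noncoding-only peaks lay both between and inside coding genes. By the rule that defines this group, no coding start site could lie nearer to the summit than that of the noncoding gene. No start site of another noncoding gene was nearer either, in 42 of 42. The start site lay in a coding intron for 17 of them, 12 antisense and 5 sense to the host, and outside coding genes for 25. Distance to the nearest coding start site had a median of 3063 bp and a range of 521 to 30814 bp, and it exceeded 5000 bp at 14 genes and 10000 bp at 7. The median signal was 157 for intronic starts and 136 for those outside coding genes. It was 152 where the coding start site was over 5000 bp away and 139 where it was nearer. None of these differences was tested, since signal chose the peaks.

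**Figure D2:**
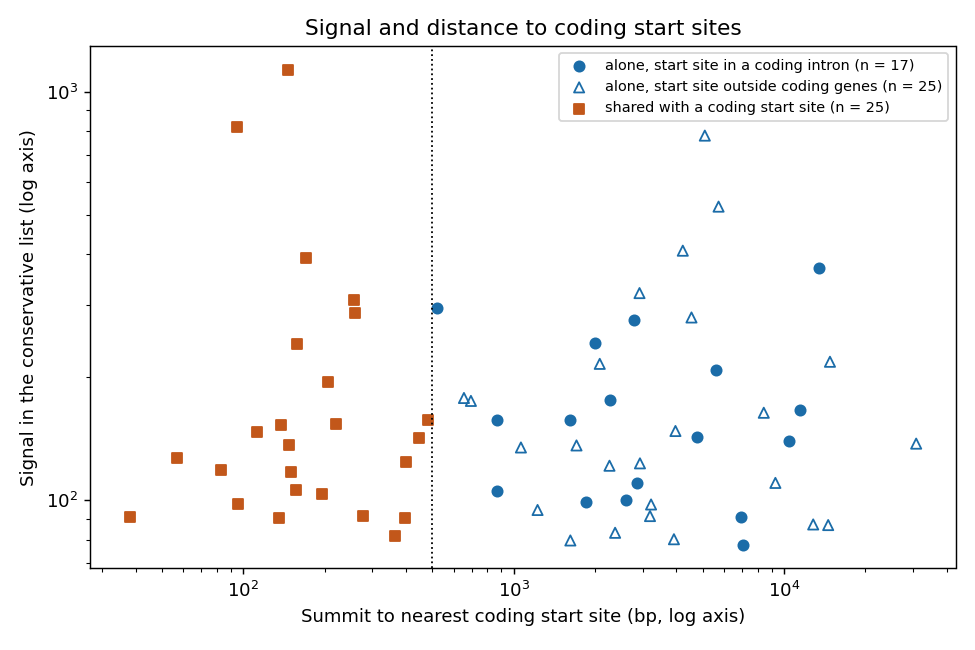
The plot sets the conservative signal of each of the 67 genes against the distance from its summit to the nearest coding start site, both on log axes, with a dotted line at 500 bp. Noncoding-only points reach from 521 to 30814 bp, and the strongest of them, at 781, lies 5094 bp from a coding start site.

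Among shared peaks, the strongest lay at lncRNA:CR44463 on 2R, a gene of 201 bp. The signal was 1133, rank 4 of the conservative list, and 501 and 641 in replicates 1 and 2, rank 5 in each. The summit lay 432 bp downstream of the noncoding start site, past the end of that gene, and 146 bp upstream of the start site of mRpL41, which encodes a protein of the mitochondrial large ribosomal subunit. Both genes are read in the same direction, and the coding start site was the nearer. asRNA:CR45928 had the next highest signal, 819 (rank 11), with 345 in replicate 1 and 473 in replicate 2. Its start site lay 29 bp from that of eIF6, a factor of large ribosomal subunit biogenesis, which is read the opposite way, and the summit lay 66 bp downstream of the noncoding start and 95 bp upstream of the coding one. At this pair the start sites are too close to attribute the summit to either.

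lncRNA:CR44149 had a signal of 391, with 202 in replicate 1 and 187 in replicate 2, and its summit lay 66 bp downstream of its start site and 171 bp upstream of that of brwl. lncRNA:enrr, the only gene of the 67 with a given name, shares its annotated start site with elav, which encodes the RNA-binding protein of differentiated neurons. The summit lay 256 bp upstream of that site, and the signal was 308.5 (rank 136), with 137 and 168 in replicates 1 and 2. Since the start sites are at the same base, the peak belongs to both annotations equally. asRNA:CR43257 had a signal of 288, with its summit 138 bp upstream of its own start site and 259 bp upstream of that of Reg-5, a gene named for its rhythmic expression. lncRNA:CR44209 had a signal of 241, with its summit 158 bp upstream of the cytochrome gene Cyt-b5 and 367 bp upstream of Drat.

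The asRNA:CR44996 summit, with a signal of 194, was 409 bp upstream of the noncoding start and 205 bp upstream of pes, a gene of the CD36 scavenger receptor family. lncRNA:CR45618 had a signal of 157, and the prtp start site lay 481 bp from the summit. lncRNA:CR44522 had a signal of 153, with its summit 220 bp upstream of Ldh, the lactate dehydrogenase gene, and lncRNA:CR44120 had 152, with its summit 138 bp upstream of SLC5A11, a gene of the sodium-solute cotransporter family. Both of these noncoding genes are read in the same direction as their partner and end before the summit. lncRNA:CR45168 had a signal of 147, 112 bp upstream of sti, the gene of the cytokinesis kinase Citron, and 132 bp upstream of tral, which encodes a component of ribonucleoprotein granules. At lncRNA:CR43918, with a signal of 142, the summit lay downstream of both starts, 425 bp from its own and 446 bp from that of Dp, the dimerization partner of E2F. The lowest shared signals were 90.3 at lncRNA:CR42862, paired with CG33229, 90.2 at lncRNA:CR43644, paired with the Notch target gene E(spl)m3-HLH, and 81.8 at asRNA:CR44293, paired with the pyruvate carboxylase gene PCB.

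Shared summits mostly lay upstream of the coding start, and on either side of the noncoding start. The summit lay upstream of the nearest coding partner in 23 of 25 genes (92%, 95% interval 74.0 to 99.0%) and upstream of the noncoding start in 9 of 25 (36%, 18.0 to 57.5%). With upstream positions written as negative, its median position was -150 bp from the coding start (quartiles -220 and -96 bp) and 82 bp from the noncoding start (quartiles -167 and 389 bp). Over all 991 coding genes with a promoter peak the median was also -150 bp, and 91.3% were upstream. The coding start was the nearer in 15 of the 25 pairs, the noncoding start in 9, and they were equally far in 1, at lncRNA:enrr. In 14 pairs the summit lay downstream of the noncoding start and upstream of the coding one, and in 9 it lay upstream of both. Of the 16 summits downstream of the noncoding start, 10 lay inside the noncoding gene and 6 past its end. The window of 500 bp used to select the genes limits all these distances, so no test was made.

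Only the nearest coding partner of each gene was used for the layout, although 4 of the 25 genes had more than 1. The arrangement of these pairs fell into 3 layouts. In 11 the genes diverged, with start sites 9 to 867 bp apart. The summit lay upstream of the coding start in all 11 of these and between the start sites in 7, and the median signal was 157. In 8 the genes overlapped on opposite strands, and all 8 summits lay downstream of the noncoding start, at a median of 356.5 bp, while 6 lay upstream of the coding start. Signals of these 8 had a median of 118 and reached no higher than 142. In 6 the genes were read in the same direction, with 4 summits downstream of the noncoding start and all 6 upstream of the coding start, at a median of -142 bp. The layout itself fixes part of these positions, and the groups are small.

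**Figure D3:**
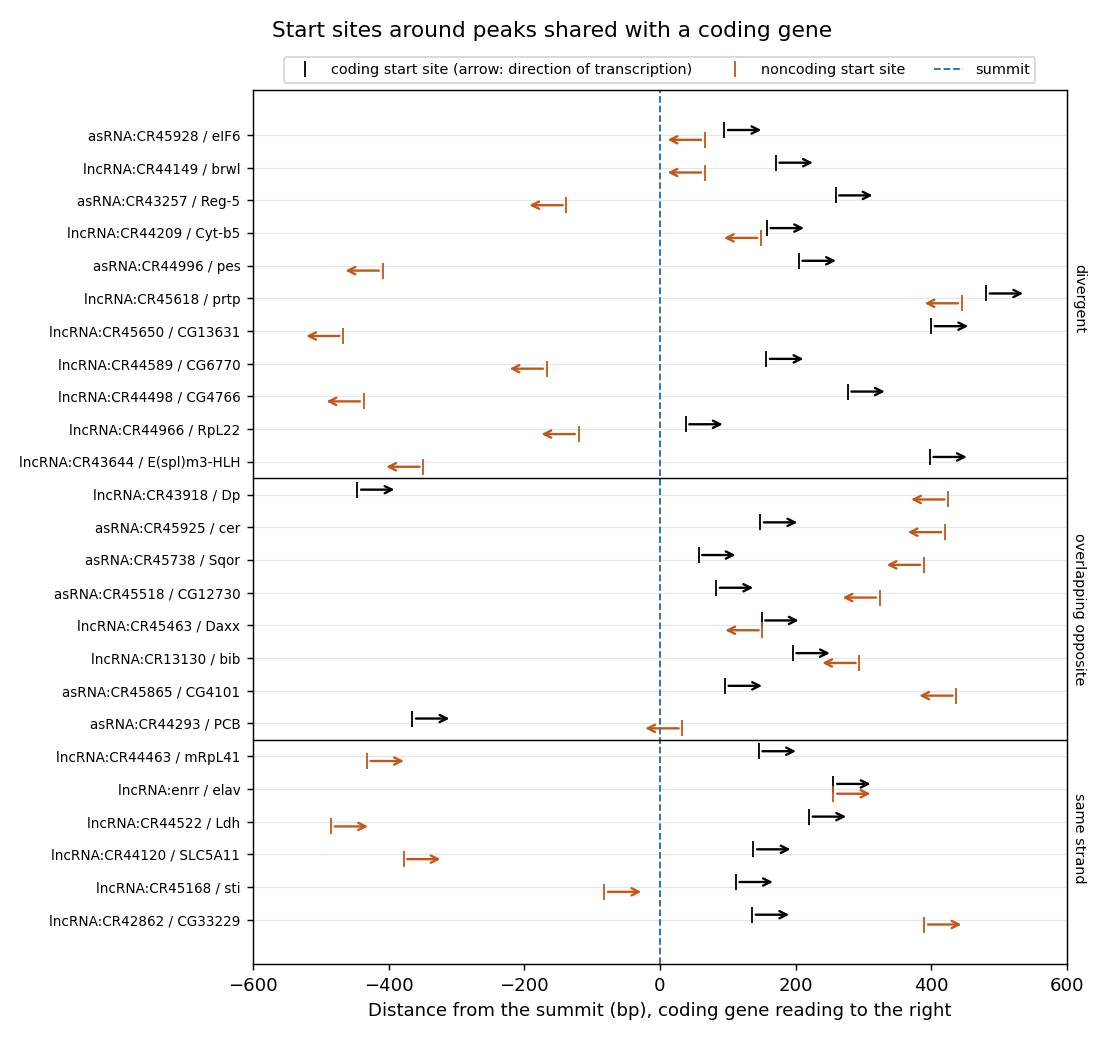
The map shows, for each of the 25 shared peaks, the start site and direction of the coding partner (black) and of the noncoding gene (orange) by distance from the summit in bp, turned so that the coding gene reads to the right. Coding starts lie to the right of the summit in 23 of 25 rows, whereas noncoding starts lie on both sides.

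Noncoding-only summits were more scattered about the start site than those of coding genes, with an SD of 294 bp against 149 bp. They spanned nearly the whole window, from -456 to 499 bp, and 23 of the 42 (54.8%) lay within 250 bp of the start on either side. Whether these summits gather at the noncoding start more than an even spread over the window would was not tested. They were upstream of the noncoding start in 27 of 42 genes (64.3%, 95% interval 48.0 to 78.5%). At the median they lay at -139.5 bp (quartiles -227.5 and 200.0 bp). Within 300 bp upstream lay 20 of the 42 (47.6%), against 79.1% of the 991 coding genes with a promoter peak. Each distance was taken to the nearest annotated start site of the gene, so a gene with many start sites can have a nearer one. Of the 42 noncoding-only genes 32 had a single transcript, and the part of this choice in the difference was not tested. Of the 15 downstream summits, 12 lay inside the noncoding gene and 3 past its end. Where the noncoding start was outside coding genes, 19 of 25 summits were upstream, at a median of -195 bp. Where it was in a coding intron, 8 of 17 were upstream and the median was 63 bp. Neither difference was tested, since the position was used to choose the genes.

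**Figure D4:**
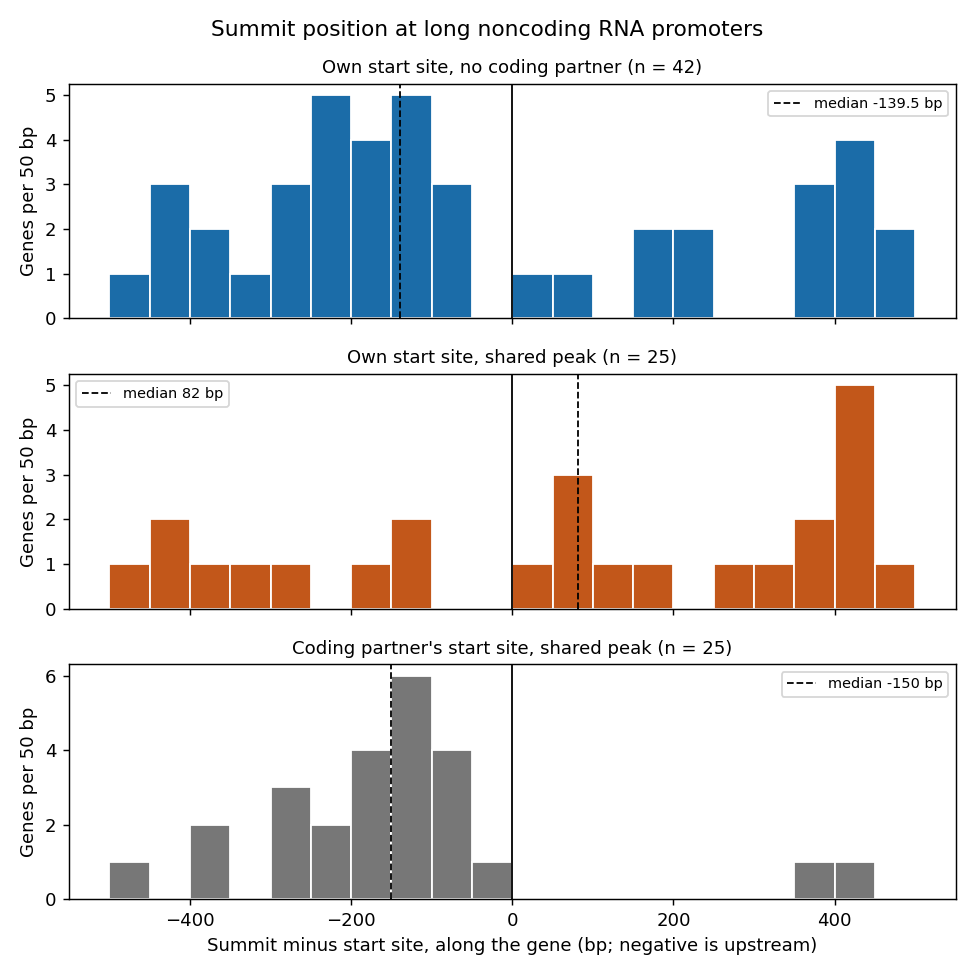
The histograms count genes per 50 bp of summit position along the gene, negative being upstream, for the noncoding-only genes, for the noncoding start of shared peaks and for the coding start of the same shared peaks, with dashed lines at the medians of -139.5, 82 and -150 bp. Of the coding partners 20 of 25 have the summit within 300 bp upstream of the start, and noncoding starts spread over the whole window.

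Both replicates contained most of these peaks. A thresholded peak of replicate 1 overlapped 56 of the 67 (83.6%, 95% interval 72.5 to 91.5%), against 85.8% of all 767 promoter peaks, and a thresholded peak of replicate 2 overlapped 61 (91.0%, 81.5 to 96.6%), against 94.5%. The other thresholded series list held 63 of them (94.0%), against 94.7%. Each of these shares was close to its background. Both replicates' thresholded lists held 53, only that of replicate 1 held 3, only that of replicate 2 held 8, and neither held 3. Of all 767 promoter peaks these numbers were 633, 25, 92 and 17. The ranked lists, which include weak peaks, held all 67 in replicate 1 and 66 in replicate 2. The conservative list was made from both libraries, so this overlap is not independent of the choice of genes.

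Signal in replicate 2 was above that in replicate 1 at 52 of the 66 genes with both values, with a median log2 ratio of 0.38 (SD 0.38, n = 66 genes). At coding promoter peaks it was above at 596 of the 693 with both values, and the median log2 ratio was 0.37. The scales of the lists need not match, so the offset is no measure of occupancy. The replicates' own summits lay a median of 15 bp from the conservative summit. Both replicates ranked 8 of the genes in their top 200.

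The genes missing from a replicate's thresholded list were weak ones. The 3 in neither list were asRNA:CR43469 (signal 83.1), lncRNA:CR42736 (80.2) and lncRNA:CR43700 (79.6). Those absent from replicate 2 alone were lncRNA:CR44589 (106), lncRNA:CR43411 (99.2) and lncRNA:CR46265 (100.2), and the last of these had no overlapping peak in the ranked list of replicate 2 either. Absent from replicate 1 alone were asRNA:CR45518, asRNA:CR45865, lncRNA:CR45721, lncRNA:CR44761, lncRNA:CR44478, lncRNA:CR44966, asRNA:CR44293 and lncRNA:CR45808, with signals of 77.8 to 118.6. Among these, lncRNA:CR44966 shares its peak with the ribosomal protein gene RpL22, whose start site lay 38 bp from the summit, the closest of all coding partners. The other series list lacked lncRNA:CR44589, lncRNA:CR46265, lncRNA:CR44761 and lncRNA:CR43700.

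Sequence at the summits of noncoding genes was AT-rich, as at coding promoter peaks and over the whole conservative list. The GC content of the 101 bp windows was 30.65% ± 8.84 (SD over 67 peaks), against 46.0% ± 7.39 in the flanking windows. The summit window was the lower in 59 of 67 (88.1%), near the 88.6% of coding promoter peaks. Mean GC content was 30.3% ± 8.97 at the 42 noncoding-only summits and 31.25% ± 8.77 at the 25 shared ones. Beside these it was 30.05% ± 9.07 at the 695 coding promoter peaks and 30.51% ± 8.495 at all 1472 conservative peaks. Equally wide windows centred 150 bp upstream of start sites without a peak had 39.1% ± 10.1 at noncoding genes and 36.2% ± 10.9 at coding genes. Under 25% GC were 19 of the 67 summits. Repeat-masked (soft-masked) sequence covered 22 of the 67 summits (32.8%), against 32.4% of the coding promoter peaks.

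**Figure D5:**
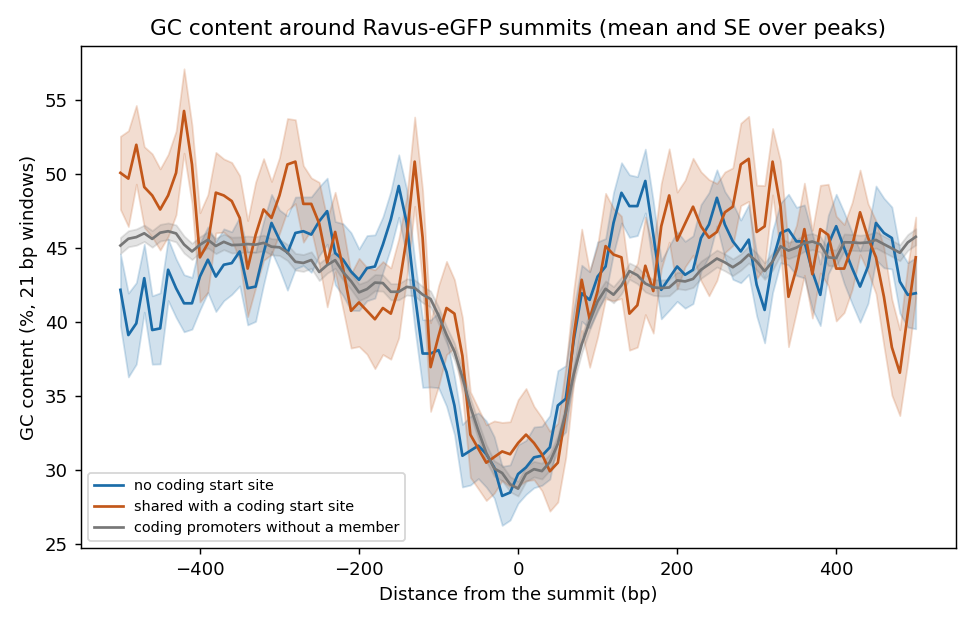
The lines give the mean GC content in windows of 21 bp from 500 bp before to 500 bp after the summit along the plus strand of the genome, with shading for the SE over peaks, at noncoding-only, shared and other coding promoter peaks. All 3 lines fall to a trough at the summit, where they read 29.7%, 31.8% and 28.7%.

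The AT-rich trough was missing at 8 of the 67 genes, 6 noncoding-only and 2 shared, where the summit window had a GC content at or above that of the flanks. The summit window was the lower at 88.1% of the 67, 88.6% of coding promoter peaks and 89.1% of all conservative peaks. The count is thus close to the background, and no trait of these genes is read from it. lncRNA:CR43857 stood out with 63.4% GC at the summit against 39.6% beside it, the highest of all 67, and a signal of 97.5. lncRNA:CR44966, the partner of RpL22, followed with 56.4% against 55.4%. The other 6 were lncRNA:CR45668, lncRNA:CR44917, asRNA:CR45999, asRNA:CR45518, lncRNA:CR46243 and lncRNA:CR43838, with signals of 86.8 to 178. None of the 8 had a signal over 200, which 18 of the 67 genes exceeded. Stronger peaks did not all have a clear trough. Of the noncoding-only windows printed above, all with a signal over 200, lncRNA:CR44619, lncRNA:CR31044 and lncRNA:CR31840 had a GC content only slightly below the flanks. The lncRNA:CR46036 and asRNA:CR44429 windows had a clear trough.

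Of 6 short motifs searched on both strands of the summit windows, TATAAA was the one found more often than in the flanks by the widest margin. It occurred in 23 of 67 windows (34.3%, 95% interval 23.2 to 46.9%), in 8.96% of the flanking windows and in 14.6% of promoter windows of noncoding genes without a peak. Those promoter windows, also used below, were centred 150 bp upstream of the outermost start site. The positions are unlike, since the summits lay on both sides of the start. At coding promoter peaks TATAAA occurred in 29.1%. Over all 1472 conservative peaks, of which 767 are promoter peaks, it occurred in 27.0% of summit windows and 9.78% of flanks. The noncoding-only and shared shares were 33.3% and 36%. The TATAAA letters contain only A and T, so their frequency moves with the low GC content given above, and its part in the difference was not tested. AAAAAA occurred in 28.4% of summit windows and 17.9% of flanks, near the 29.6% and 16.6% at coding promoter peaks. ATATATAT occurred in 2 of 67 windows (2.99%) and in no flank, against 4.03% and 0.791% at coding promoter peaks.

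For GAGAG and CANNTG the summit shares were below the flank shares, but their intervals over 67 windows included the flank shares. At the 695 coding promoter peaks GAGAG occurred in 7.05% of summit windows and 16.1% of flanks. CANNTG occurred there in 28.8% and 38.6%. GAGAG, the core bound by GAGA factor, occurred in 7 of 67 windows (10.45%, 95% interval 4.30 to 20.35%) against 17.9% of flanks and 12.1% of noncoding promoters without a peak. The E-box CANNTG, where N is any base, occurred in 31.3% (20.6 to 43.8%) against 41.0% of flanks and 39.4% of noncoding promoters without a peak. TATCGATA, the DNA replication-related element, occurred in 0 of 67 windows, which allows a share of up to 5.36%, and in 0.504% of noncoding promoters without a peak. A match is a match of letters only. Motifs made of AT can overlap one another within a window.

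Of 9 well-studied noncoding RNA genes looked up by name, none had a conservative promoter peak. Of 43 annotated lncRNA: and asRNA: genes with a given name, 1 had one, lncRNA:enrr, and with 2.74% of all noncoding genes bound a count this low is close to the background. The nearest conservative summit was 5949 bp from lncRNA:roX1 and 18586 bp from lncRNA:roX2, the RNAs of dosage compensation. It was 25692 bp from lncRNA:bxd and 49788 bp from lncRNA:iab8, transcripts of the bithorax complex, and 264070 bp from lncRNA:flam, a precursor of piRNAs that silence transposons. For the neural transcript lncRNA:noe it was 27616 bp, for lncRNA:let7C, the host of the let-7 microRNA cluster, 21877 bp, and for lncRNA:CRG 4569 bp. lncRNA:Hsromega, the heat-shock-induced nuclear RNA, lay 68822 bp from a conservative summit. It had a peak in the ranked series list 121 bp downstream of its start site, with a signal of 76.0 and a −log10 IDR of 0.836 (IDR is the irreproducible discovery rate, a measure of how well a peak's rank repeats). The same list had peaks 193 bp upstream of lncRNA:flam, with a signal of 46.7 and a −log10 IDR of 0.521, and 307 bp upstream of lncRNA:iab8, with a signal of 43.4 and a −log10 IDR of 0.0998. All 3 values lie below 2.00, the lowest of any conservative peak in that list. At unknown sequencing depth, a gene that lacks a peak may lie below the detection limit.

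Genes lay close to the limit of 500 bp on both sides, with none between 499 and 531 bp. Just inside it were lncRNA:CR43973, in an intron of the CTP synthase gene Ctps, with a summit 499 bp downstream of its start site and a signal of 105, and lncRNA:CR44409 at 498 bp. Just outside it were lncRNA:CR44363 at 531 bp with a signal of 198.5 and lncRNA:CR45291 at 533 bp with a signal of 88.3. The signals inside and outside the limit overlapped.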

How the data were processed

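The authors deposited peak lists on dm6 for the 2 replicates and for both together, per the file list given with each sample. The deposited signal is a value per peak on an unnamed scale, and the ranked series list also holds the authors' −log10 of the irreproducible discovery rate (IDR), capped at 5. For the aligner and the peak caller, the name and version were not given in the sources used here. Read numbers were not used here, so depth is unknown and only within-list signals were compared.

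Genes and start sites came from Ensembl release 115 on BDGP6.54, whose arm lengths were compared with the peak coordinates. Members had the prefix lncRNA: or asRNA: and a start site at most 500 bp from a conservative summit, and the strongest such peak stood for the gene. The shared group had a protein-coding start site within 500 bp of that summit. A replicate's peak was a match if it shared 1 bp or more. GC content and 6 motifs were read in windows of 101 bp. The 95% intervals of shares are exact (Clopper-Pearson) and take in only the counting error over peaks. No tests were run, since the study has 1 group and the readout selected the genes. Summit windows, distances, motif searches and overlaps were tested on simulated data. Python 3.11.15, numpy 2.4.6, scipy 1.17.1 and matplotlib 3.10.9 were used.

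The members, the lists and the rules were chosen with earlier results of these data known. Named genes were the 15 strongest and 3 weakest noncoding-only genes, the 12 strongest and 3 weakest shared genes, given-name genes, genes absent from a replicate's thresholded list, genes with more than 1 peak, and the 2 closest on either side of the limit. Genes with summit GC at or above that of the flanks, the closest coding partner (RpL22) and the ranked peak of lncRNA:Hsromega were named after their values were seen. Alternatives changed the list, the replicate, the window, the start sites, the overlap rule and the motif window. Leaving out soft-masked summits was added after seeing the data. It gave a mean GC content of 32.6% at 30 noncoding-only and 34.5% at 15 shared summits, against 30.3% and 31.25% with all summits.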

Additional observations from a re-analysis of the deposited data

Results flagged for a closer look

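A promoter peak with a strong signal but outside every thresholded list was found in the ranked series list at 2 noncoding genes on 3R, which the comparisons of the report do not use. The asRNA:CR46055 peak had a signal of 218.4, above the median of 139.9 of the 67 genes, a −log10 IDR of 3.84 and a summit 126 bp downstream of the start site, within 500 bp of a start site of the cell-cycle gene E2f1. The asRNA:CR45908 peak had a signal of 178.7, a −log10 IDR of 4.29 and a summit 348 bp upstream of the start site. Both values of −log10 IDR exceed 2.00, the lowest of any conservative peak in the same list. Of the 206 other noncoding genes with a promoter peak in the ranked list, these were the 2 with a signal at or above that median and the 2 with a −log10 IDR of 2 or more.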

How the results depend on the processing

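The number of noncoding genes with a promoter peak depended mainly on the window: 32 within 250 bp and 111 within 1000 bp, of which 7 and 54 were shared, against 67 and 25 within 500 bp. With the 67 genes held fixed, a coding start site within 250 or 1000 bp of the summit gave 17 and 30 shared. The stronger 50% of the conservative list left 38 genes, 13 of them shared. With the peaks of 1 replicate alone, the count was 59 to 71 and the shared count 26 to 30, and 54 of the 67 genes were kept without replicate 2 and 57 without replicate 1. Leaving out a replicate gave median signals of 63.3 to 78.0 (noncoding-only) and 60.7 to 64.7 (shared) on the replicates' own scales, median positions of -167 to -130 bp and 89.5 to 125.5 bp, and mean GC contents of 30.5 to 31.4% and 30.05 to 31.75%. Motif shares moved with the width searched, by construction: with 25 and 100 bp on either side of the summit, TATAAA was in 16.4% and 50.75% of windows, CANNTG in 14.9% and 62.7% and AAAAAA in 13.4% and 44.8%. ATATATAT was in 0% with 25 bp and GAGAG in 25.4% with 100 bp. Of 69 alternatives, 55 left the value within its spread or within 1.5 times the count, and 14 moved it. For medians and means the spread was the SD over peaks, which is a wide limit. The noncoding-only median signal had an SD of 136.1 around 141, so even 63.3 on a replicate's own scale counted as within it. Positions had SDs of 293.9 bp (noncoding-only) and 326.4 bp (shared), so their medians could hardly leave that limit. Only the median positions could take either sign, and none of them reversed it. The order of the groups did change: median signal was 137.5 noncoding-only and 146.9 shared within 250 bp, against 141 and 136.5, and mean GC was 31.1% and 30.5% in the other series list, 30.5% and 30.05% without replicate 2 and 31.3% and 29.8% within 1000 bp, against 30.3% and 31.25%. No paired analysis was possible because the study has only 1 group. Unknown depth limits every statement on genes without a peak.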
